A study of Homo sapiens with 17 samples.

Results

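The first hour of a TRAIL time course in MDA-MB-231 cells is described here, as the comparison of 2 libraries taken after 1 h with 3 libraries taken at 0 h, which are 5 of the 17 libraries of the series. The libraries were chosen by their labelled time, and the comparison is described over all 15365 genes tested. MDA-MB-231 is an established line of human triple-negative breast cancer cells and is labelled mesenchymal, basal B. All libraries came from cells grown in RPMI medium with serum and antibiotic, and all of them, the 0 h libraries included, carry the label of TRAIL treatment at 45 nM. Of the other libraries, 3 each were taken at 3, 6, 12 and 24 h. The dose lay below the optimum, per the treatment protocol in the labels, and the series' design text gives the purpose as reading gene expression in living rather than apoptotic cells. The protocol speaks of triplicates, and 2 libraries at 1 h were analysed here. None of the later libraries is labelled untreated, and an hour with TRAIL and an hour of handling or culture cannot be told apart. The p-values measure the spread between replicate libraries, pooled over all 17 libraries and so mostly from the later times. Nothing in the labels says that replicates came from separate cultures, so this spread may be technical.

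TRAIL is a ligand of the tumour necrosis factor family. Its death receptors recruit FADD and caspase-8 and can start apoptosis, and a secondary complex can activate NF-κB and the stress-activated MAP kinases. The first genes to respond to such signals are the immediate-early genes, which need no new protein and include AP-1 transcription factors, and the quick inhibitors that shut the same pathways off, such as the IκBα gene NFKBIA for NF-κB and dual-specificity phosphatases for MAP kinases.

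Depth was even across the 5 libraries, with total counts from 15757305 to 16396843 and between 20878 and 21041 genes with a count. Mitochondrial genes took 5.53% to 8.37% of the counts at 0 h, and 7.65% and 9.71% at 1 h. The mesenchymal markers VIM (3357 ± 108 CPM, SD, n = 3), CD44 (1318 ± 43.6) and AXL (724 ± 38.8) were abundant at 0 h, whereas SPARC, another marker on that list, stood at 0.685 ± 0.124 CPM. CPM are counts scaled to a common library size. On the list of luminal and receptor markers, KRT8 (1041 ± 10.3 CPM) and KRT18 (745 ± 50.5 CPM) were abundant, ERBB2, EPCAM and GATA3 stood at 64.5 ± 3.12, 17.8 ± 1.38 and 10.5 ± 1.24 CPM, and CDH1 at 0.477 ± 0.0722 CPM, while ESR1 and PGR were too low to test. Leukocyte markers summed to 1.64 to 2.00 CPM at 0 h and 1.90 to 2.24 CPM at 1 h, with 2 of 7 (CD3E and CSF3R) at 0 in all 5 libraries. Fibroblast and endothelial markers summed to 12.9 to 16.3 CPM at 0 h and 14.3 to 15.6 CPM at 1 h, with 2 of 7 (CDH5 and DCN) at 0 in all 5.

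A small set of genes differed after 1 h. The higher genes included the transcription factor genes ATF3 and JUNB, the stress genes GADD45A and GADD45B, the kinase gene NUAK2, the matricellular genes CCN1 and CCN2, and the NF-κB inhibitor gene NFKBIA. The mTORC1 inhibitor gene DDIT4 and the AP-1 gene FOS were lower. Of the genes tested, 40 were called higher (0.260%) and 8 lower (0.0521%) by edgeR's quasi-likelihood test at a Benjamini-Hochberg adjusted p below 0.05. A difference of at least 2-fold was called for 9 higher genes (0.0586%) and 1 lower gene (0.00651%). The median log2 fold change of all genes tested was -0.0041, with 48.6% above 0, and the median size among the 48 called genes was 0.60. The 1 h and 0 h libraries did not overlap in any of the 48 called genes, against 19.1% of all genes tested. With each of the 5 libraries left out in turn, 17 genes were called every time, 16 of them higher and DDIT4 lower. Where a 1 h library was left out, the remaining one was assumed to vary like the libraries of the other times.

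**Figure D1:**
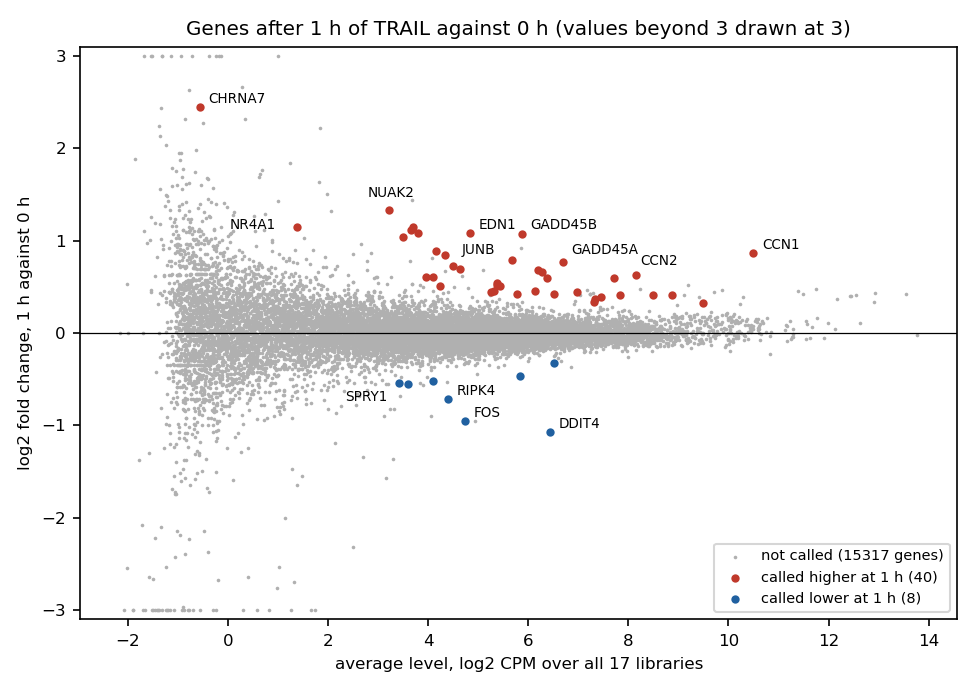
Each point is 1 of the 15365 genes tested, with its average level in log2 CPM over all 17 libraries on the x axis and its log2 fold change at 1 h against 0 h on the y axis. The 40 genes called higher (red) and 8 called lower (blue) lie above and below 0, and CHRNA7 stands apart among them as a gene of low level. Some grey points, which were not called, lie further from 0 than many called genes, such as EGR3 at 1.79.

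In the AP-1 family, whose members pair to bind DNA, ATF3, JUNB and JUN were called higher and FOS lower. ATF3, a stress-induced factor of the wider family whose gene lies on chromosome 1 from 212565334 to 212620777 (GRCh38, plus strand), measured 9.15, 11.7 and 10.3 CPM in the 0 h libraries and 22.98 and 23.1 CPM in the 1 h libraries (log2 fold change 1.15, SE 0.11, adjusted p = 3.81e-06). JUNB measured 29.2, 29.5 and 29.5 CPM at 0 h and 48.1 and 53.7 CPM at 1 h (0.79, SE 0.111, adjusted p = 6.49e-04). Both 1 h libraries lay well above every 0 h library for the pair, and the 0 h libraries of JUNB differed by less than 1 CPM. JUN, the founding member of the family, rose less, from 158, 158 and 143 CPM to 185 and 217 CPM (0.39, SE 0.0798, adjusted p = 0.0327). FOS, the classical partner of JUN, fell, from 48.6, 35.3 and 48.04 CPM to 20.9 and 24.6 CPM (-0.95, SE 0.148, adjusted p = 0.0027). The groups did not overlap, as in every called gene, although the 0 h replicate 2 was the lowest of its group in FOS. Of the other FOS-family genes, FOSL1 had a log2 fold change of 0.39 (adjusted p = 0.0963) and FOSB of -0.47 (adjusted p = 0.955), with overlapping groups for FOSB. FOSL1 was called by DESeq2, with no filter on low counts, and when trends with transcript length and GC content were removed. JUN kept its call only without the 1 h replicate 1 (0.51, adjusted p = 0.0211), and its log2 fold change without the 1 h replicate 2 was 0.27. FOS lost its call only without the 1 h replicate 1 (-0.83, adjusted p = 0.118).

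The wider list of 35 immediate-early genes had 8 members called higher and 1 lower, and a median log2 fold change of 0.24, with 29 of 35 above 0. Of these, 16 higher and 3 lower members had an unadjusted p below 0.05, beside 791 of all 15365 genes in either direction. NR4A1, an orphan nuclear receptor, was at 1.43, 1.31 and 1.43 CPM at 0 h and 3.04 and 3.13 CPM at 1 h (1.15, SE 0.194, adjusted p = 0.00454). SRF, the factor that binds serum response elements, was at 144, 152 and 141 CPM at 0 h and 183 and 185 CPM at 1 h (0.34, SE 0.0549, adjusted p = 0.003), a small rise with little spread. CSRNP1 rose by 0.60 and IER3, a regulator of survival and NF-κB signalling, by 0.42 on the log2 scale. Of other well-known members, EGR1 had 0.29 (adjusted p = 0.987) and MYC 0.12 (adjusted p = 0.941), and EGR1 measured 33.9, 31.1 and 38.8 CPM and 41.8 and 42.7 CPM. EGR3 had the highest fold change of the list, 1.79 (adjusted p = 0.173), on counts of only 2, 3 and 6 at 0 h and 15 and 10 at 1 h. NR4A1 lost its call when either 1 h library was left out (1.17, adjusted p = 0.0668 without replicate 1, and 1.12, adjusted p = 0.102 without replicate 2), and its counts were not whole in 14 of 17 libraries. SRF was likewise not called without either 1 h library (0.35, adjusted p = 0.0511, and 0.33, adjusted p = 0.101), CSRNP1 not without the 1 h replicate 2 (0.56, adjusted p = 0.0958), and IER3 only kept its call without the 1 h replicate 1, with an adjusted p of up to 0.937 otherwise.

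NUAK2, GADD45B, GADD45A, PPP1R15A and WEE1, known from stress responses and cell cycle control, were called higher and are described together by role, with no test of the grouping. NUAK2, a kinase related to AMPK (chromosome 1, 205302059 to 205321791, minus strand), measured 4.29, 4.42 and 5.48 CPM at 0 h and 13.2 and 10.7 CPM at 1 h (1.34, SE 0.157, adjusted p = 5.76e-05). GADD45B, a stress sensor that binds a MAP kinase kinase kinase, measured 64.02, 57 and 53.6 CPM and 115 and 131 CPM (1.08, SE 0.0907, adjusted p = 1.38e-06). Its relative GADD45A was at 107, 93.7 and 92.1 CPM and 154 and 179 CPM (0.77, SE 0.0903, adjusted p = 5.76e-05). Groups were apart in all 3 genes, as in every called gene, and the lowest 1 h value of GADD45B exceeded its highest 0 h value by a wide margin. PPP1R15A, the GADD34 subunit that directs a phosphatase to eIF2α, was at 206, 208 and 194 CPM at 0 h and 297 and 315 CPM at 1 h (0.60, SE 0.0637, adjusted p = 1.47e-05). WEE1, the kinase that restrains entry into mitosis, was at 36.5, 39.4 and 41.01 CPM and 59.9 and 51.9 CPM (0.52, SE 0.084, adjusted p = 0.0028). NUAK2, GADD45A, GADD45B and PPP1R15A were called with every library left out in turn, whereas WEE1 lost its call when the 1 h replicate 1 was left out (0.42, adjusted p = 0.176). Both GADD45 genes had been placed on the list of 12 p53 target genes, and whether p53 drives them was not tested. The remaining 10 members were not called, among them CDKN1A at 0.056 and MDM2 at 0.091. On the list of 15 genes of the ATF4 and unfolded protein response, ATF3 was the only member called, and DDIT3 had 0.37 (adjusted p = 0.476).

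**Figure D2:**
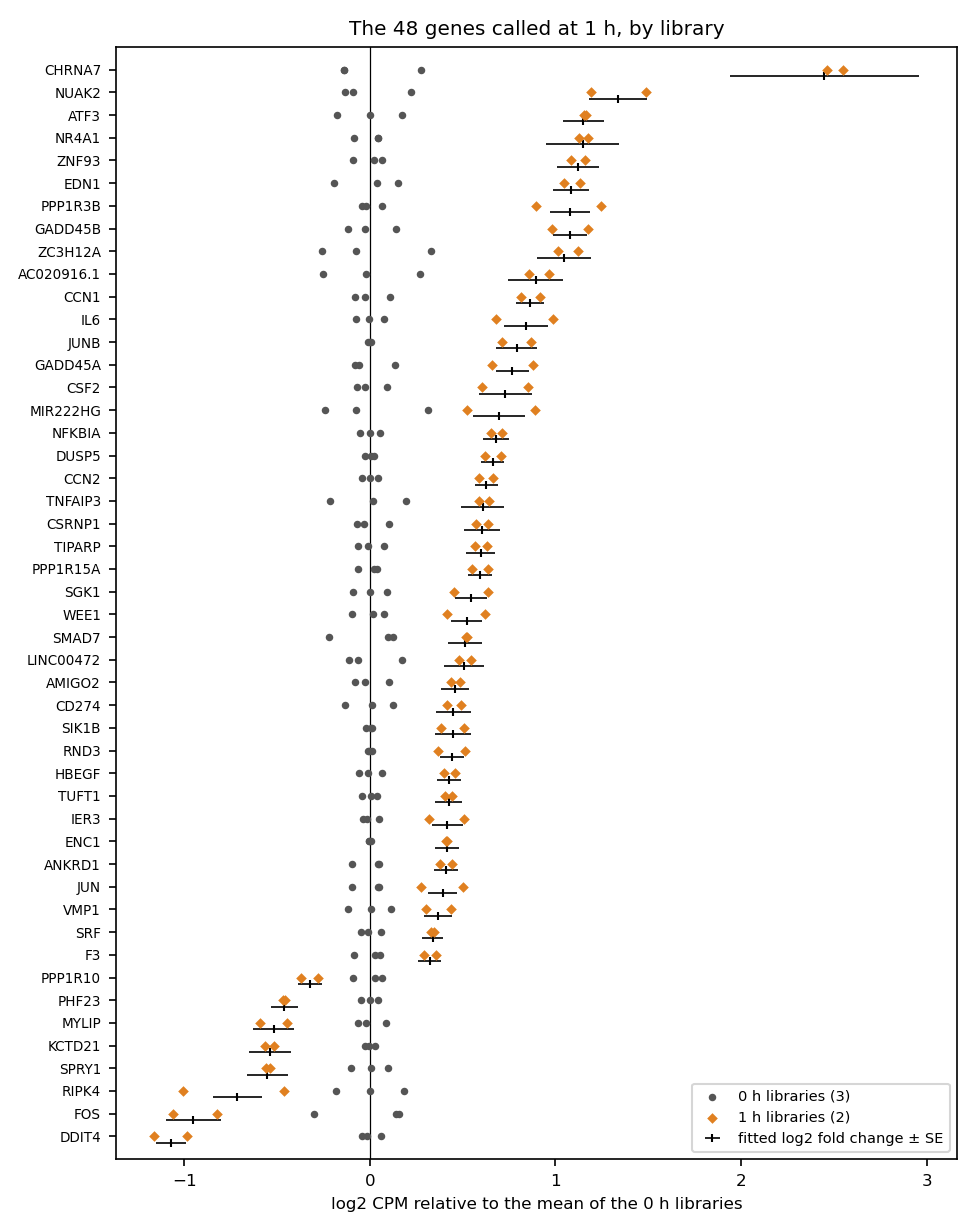
For each of the 48 called genes, the x axis gives the log2 CPM of each 0 h library (grey circles, 3) and 1 h library (orange diamonds, 2) relative to the mean of the 0 h libraries, and the black bar gives the fitted log2 fold change with its SE. The 1 h points lie outside the range of the 0 h points in every gene, and the 1 h libraries of RIPK4, PPP1R3B and MIR222HG lie furthest from each other.

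In the NF-κB pathway, the inhibitor genes NFKBIA and TNFAIP3 were called higher, and no subunit gene was called. NFKBIA, which encodes the inhibitor IκBα, measured 42.6, 44.2 and 45.99 CPM at 0 h and 69.5 and 72.5 CPM at 1 h (0.68, SE 0.0698, adjusted p = 7.97e-06). TNFAIP3, which encodes the ubiquitin-editing inhibitor A20, measured 9.89, 7.47 and 8.78 CPM and 13.04 and 13.5 CPM (0.61, SE 0.115, adjusted p = 0.0159). As with every called gene, neither had overlapping groups, and the spread within the 0 h group was wider in TNFAIP3. The other 19 of the 21 genes tested on the list of NF-κB feedback and subunit genes were not called, and the list's median was 0.017, with 11 of 21 above 0 (-0.029 when scaled by library size alone). Among them, BIRC3, an inhibitor of apoptosis, measured 41.3, 39.8 and 46.5 CPM and 58.4 and 54.4 CPM (0.41, adjusted p = 0.222), and NFKBIZ had 0.41 (adjusted p = 0.224). BIRC3 was called when no filter on low counts was used and when trends with transcript length and GC content were removed. The other inhibitor genes on the list, NFKBIB, NFKBIE, CYLD, TNIP1 and TNIP2, had 0.15, 0.16, 0.017, -0.011 and 0.063 and were not called. The subunit genes NFKB2, RELB and NFKB1 had 0.12, -0.094 and -0.021, and the lowest value was that of BCL3, -0.28 (adjusted p = 0.965). TNFAIP3 kept its call only without the 0 h replicate 1 (0.71, adjusted p = 0.00749), and its adjusted p otherwise reached 0.25, without the 1 h replicate 2.

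The cytokine genes IL6 and CSF2, the RNA decay gene ZC3H12A and the immune checkpoint gene CD274 were called higher. IL6 was at 9.83, 10.9 and 10.3 CPM at 0 h and 20.5 and 16.6 CPM at 1 h (0.84, SE 0.117, adjusted p = 5.78e-04). CSF2, the gene of GM-CSF, was at 10.02, 10.3 and 11.2 CPM and 15.9 and 19 CPM (0.73, SE 0.145, adjusted p = 0.0271). ZC3H12A, the gene of Regnase-1, a nuclease that degrades IL6 and other cytokine transcripts, rose with them, from 6.72, 5.92 and 8.90 CPM to 15.4 and 14.3 CPM (1.05, SE 0.145, adjusted p = 5.78e-04). It was the only one of the 8 genes tested on the list of cytokine mRNA decay regulators to be called, and ZFP36, another such regulator, had -0.036. CD274, the gene of PD-L1, measured 25.9, 28.6 and 30.9 CPM at 0 h and 39.9 and 37.9 CPM at 1 h (0.45, SE 0.0928, adjusted p = 0.0349). On the list of 19 cytokine and chemokine genes tested, IL6 and CSF2 were the 2 called. The median was 0.32, or 0.28 without TNF, whose counts were 0 in all 3 libraries at 0 h. Some other high members had wide errors, such as CXCL10 (1.56, SE 1.1) and IL1B (1.42, SE 0.464). Summed over the 24 listed genes, the level was 337 to 347 CPM at 0 h and 352 to 363 CPM at 1 h. CXCL8, a chemokine for neutrophils, measured 10.6, 9.28 and 14.1 CPM and 15.8 and 16 CPM (0.49, adjusted p = 0.304). Its groups did not overlap, as in 19.1% of all genes tested. CXCL8 was called when the 0 h replicate 3 was left out (0.67, adjusted p = 0.0236) and when no filter on low counts was used. IL6 lost its call when the 1 h replicate 1 was left out (0.68, adjusted p = 0.0511). CSF2 was not called without any 1 of the 5 libraries (adjusted p from 0.0511 without the 1 h replicate 1 to 0.708 without the 1 h replicate 2), and CD274 kept its call only without the 0 h replicate 3 (0.51, adjusted p = 0.0261).

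Of 13 genes commonly used as readouts of YAP and of SRF with its actin-regulated cofactors, CCN1, CCN2 and ANKRD1 were called higher. CCN1, which encodes a secreted matricellular protein, was the most abundant called gene, at 1455, 1321 and 1273 CPM at 0 h and 2372 and 2542 CPM at 1 h (0.86, SE 0.075, adjusted p = 1.57e-06). Its relative CCN2 measured 310.4, 320.4 and 301 CPM and 493 and 467 CPM (0.63, SE 0.0611, adjusted p = 4.82e-06). ANKRD1, a nuclear ankyrin-repeat protein, measured 329, 298 and 328 CPM and 414 and 432 CPM (0.41, SE 0.065, adjusted p = 0.0027). The list's median was 0.12 with 10 of 13 above 0. AMOTL2, another member, had 0.31 (adjusted p = 0.153) and TAGLN had 0.53 (adjusted p = 0.257), both called when no filter on low counts was used. AMOTL2 was also called when trends with transcript length and GC content were removed. VCL and FLNA had -0.011 and -0.03, and AXL had the lowest value, -0.052. CCN1 and CCN2 were called with every library left out in turn, and ANKRD1 lost its call when the 1 h replicate 2 was left out (0.37, adjusted p = 0.101). CCN2 counts were not whole in 15 of 17 libraries, so that part of its reads was shared out between genes.

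EDN1, HBEGF, F3 and RND3 were also called higher. EDN1, the precursor of the vasoconstrictor endothelin-1, measured 29.6, 23.4 and 27.4 CPM at 0 h and 58.4 and 54.99 CPM at 1 h (1.08, SE 0.0969, adjusted p = 2.02e-06). HBEGF, a ligand of the EGF receptor, measured 72.8, 76.7 and 70.2 CPM and 96.5 and 100.5 CPM (0.43, SE 0.0634, adjusted p = 0.00125). They were the 2 called of 16 genes tested on the list of growth factor ligands, whose median was 0.045 (-0.00079 when scaled by library size alone). F3, the gene of tissue factor, measured 750.2, 682 and 737 CPM in the 0 h libraries and 925 and 883 CPM in the 1 h libraries (0.32, SE 0.0627, adjusted p = 0.0222). RND3 rose from 133, 134 and 135 CPM to 192 and 173 CPM (0.44, adjusted p = 6.49e-04), and the 0 h libraries differed by about 2 CPM. EDN1 was called with every library left out. HBEGF lost its call when the 1 h replicate 2 was left out (0.39, adjusted p = 0.0541), RND3 not without the 1 h replicate 1 (0.37, adjusted p = 0.0511), and F3 kept its call only without the 0 h replicate 1 (0.35, adjusted p = 0.0245).

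The 250 bases before the start of transcription were searched on both strands for known motifs in the 31 of 40 higher genes that had an entry in the RefSeq promoter table (GRCh38.p14), a gene counting when any of its listed starts had a match. A κB motif, the 10-letter site bound by NF-κB dimers, was found in 5 of the 31 (16.1%: CCN2, IL6, NFKBIA, SRF and TNFAIP3), against 8.08% of the 10563 genes tested that have an entry. A CArG box, the site of SRF, was found in 2 (6.45%: RND3 and SRF) against 1.44%. The share with GGAATG, the core of TEAD sites, was 12.9% (ANKRD1, CCN2, EDN1 and NUAK2) against 13.2%, and that with the AP-1 letters TGANTCA was 9.68% against 6.37%. The cAMP response element TGACGTCA was found in PPP1R15A alone (3.23% against 3.35%), and the E-box CACGTG in 9.68% against 11.1%. Among 7 lower genes with an entry, 1 (MYLIP) had a κB motif and none had the other motifs. These matches are descriptions of letters and no binding was measured. The upstream sequences of the inhibitor gene NFKBIA, the cytokine gene IL6, the matricellular gene CCN2 and the SRF gene are printed because they hold these motifs beside a rise at 1 h. They run 5′ to 3′ on the gene's strand and stop short of annotated exons, with the matches in capitals. The capitals mark a κB motif in NFKBIA (81 to 72 bases before the start) and IL6 (73 to 64), GGAATG at 3 places in CCN2, of which the last overlaps a κB motif 95 to 86 bases before the start, and 2 CArG boxes in SRF (30 to 21 and 10 to 1). The SRF κB match lies at another listed start and is not printed.
NFKBIA (GRCh38.p14 chr14:35404750-35404999, minus strand): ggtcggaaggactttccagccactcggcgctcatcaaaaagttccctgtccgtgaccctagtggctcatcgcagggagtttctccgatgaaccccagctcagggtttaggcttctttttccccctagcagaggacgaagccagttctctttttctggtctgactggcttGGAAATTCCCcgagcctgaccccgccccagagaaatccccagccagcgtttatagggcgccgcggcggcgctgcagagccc
IL6 (GRCh38.p14 chr7:22726950-22727146, plus strand): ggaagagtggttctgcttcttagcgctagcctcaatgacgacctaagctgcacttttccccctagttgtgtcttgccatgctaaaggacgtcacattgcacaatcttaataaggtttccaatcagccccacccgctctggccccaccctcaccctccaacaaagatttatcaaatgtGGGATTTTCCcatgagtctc
CCN2 (GRCh38.p14 chr6:131951374-131951622, minus strand): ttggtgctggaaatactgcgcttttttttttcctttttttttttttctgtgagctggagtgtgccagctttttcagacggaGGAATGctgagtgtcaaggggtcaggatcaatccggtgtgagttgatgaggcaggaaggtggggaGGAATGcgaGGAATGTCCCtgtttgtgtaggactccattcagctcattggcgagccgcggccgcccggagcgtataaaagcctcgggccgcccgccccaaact
SRF (GRCh38.p14 chr6:43171019-43171268, plus strand): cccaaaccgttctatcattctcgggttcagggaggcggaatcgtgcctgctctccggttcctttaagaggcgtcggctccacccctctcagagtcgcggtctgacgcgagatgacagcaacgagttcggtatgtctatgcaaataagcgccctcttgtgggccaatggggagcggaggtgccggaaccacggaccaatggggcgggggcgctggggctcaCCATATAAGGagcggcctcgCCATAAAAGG

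In the feedback of the ERK pathway, 1 gene was called higher and 1 lower. DUSP5, a nuclear phosphatase of ERK, measured 63.5, 64.1 and 62.05 CPM at 0 h and 97.04 and 103 CPM at 1 h (0.66, SE 0.0607, adjusted p = 2.41e-06). SPRY1, a Sprouty inhibitor of receptor tyrosine kinase signalling, measured 16.1, 15.1 and 14 CPM and 10.2 and 10.3 CPM (-0.55, SE 0.109, adjusted p = 0.0258). Within the phosphatase family, DUSP4 had -0.26 (adjusted p = 0.101), DUSP1 -0.18 (adjusted p = 0.894) and DUSP6 0.057 (adjusted p = 0.987). DUSP5 was the only phosphatase of the list called by the main edgeR fit. DUSP4 was called lower by DESeq2 and when trends with transcript length and GC content were removed. Over the 17 genes of the list the median was 0.048, with 9 above 0. DUSP5 was called with every library left out, and SPRY1 kept its call only without the 0 h replicate 3 (-0.60, adjusted p = 0.0261).

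Several higher transcripts carry miRNA genes on their own strand. Such a gene lay within 6 of the 40 higher genes (15.0%) and 2 of the 8 lower genes (25%), against 5.39% of the 15329 tested genes matched to the annotation. AC020916.1, a noncoding transcript annotated opposite to ZSWIM4 that spans the miR-23a, miR-27a and miR-24 hairpins (GRCh38 chromosome 19, 13823880 to 13842928, minus strand), measured 14.9, 10.3 and 12.1 CPM at 0 h and 22.3 and 24 CPM at 1 h (0.89, SE 0.147, adjusted p = 0.00405). MIR222HG, the host of miR-221 and miR-222 on chromosome X, measured 28.2, 19.2 and 21.5 CPM and 32.6 and 42 CPM (0.70, adjusted p = 0.0327). LINC00472, whose span holds miR-30a and miR-30c-2, measured 48.3, 39.5 and 40.95 CPM and 59.7 and 62.3 CPM (0.51, adjusted p = 0.0376). VMP1, an autophagy protein gene whose end overlaps miR-21, stood at 155, 132 and 144 CPM and 176 and 194 CPM (0.37, adjusted p = 0.0375). In all 4 the groups were apart, as in every called gene, though the 0 h replicate 1 was the highest of the 0 h libraries in each of them. AC020916.1 lost its call when the 1 h replicate 2 was left out (0.83, adjusted p = 0.113), and MIR222HG not without the 0 h replicates 2 or 3 or the 1 h replicate 2, with an adjusted p of up to 0.986. LINC00472 kept its call only without the 0 h replicate 1 (0.60, adjusted p = 0.0165), and so did VMP1 (0.43, adjusted p = 0.0185). MIR222HG and VMP1 also lost their calls when trends with transcript length and GC content were removed.

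Mature miRNAs were not measured in these poly(A) libraries, and the values above are those of the host transcripts. The mature sequences from RefSeq are printed to show which seeds these transcripts could yield, with the seed (bases 2 to 8) in capitals. The miR-221 and miR-222 arms share the seed GCUACAU, and the miR-30a and miR-30c arms share GUAAACA.
miR-23a-3p: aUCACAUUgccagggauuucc
miR-27a-3p: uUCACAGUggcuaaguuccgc
miR-24-3p: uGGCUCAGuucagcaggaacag
miR-221-3p: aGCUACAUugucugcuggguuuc
miR-222-3p: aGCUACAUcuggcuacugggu
miR-30a-5p: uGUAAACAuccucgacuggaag
miR-30c-5p: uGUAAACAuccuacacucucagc
miR-21-5p: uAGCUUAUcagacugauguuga

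The remaining higher genes had varied roles. ZNF93, a KRAB zinc-finger protein known for silencing LINE-1 elements (chromosome 19, 19900913 to 19963464, plus strand), measured 11.6, 10.8 and 12.01 CPM at 0 h and 25.6 and 24.3 CPM at 1 h (1.12, SE 0.111, adjusted p = 5.34e-06). PPP1R3B, which directs a phosphatase to glycogen, measured 10.1, 10.8 and 10.2 CPM and 24.6 and 19.3 CPM (1.08, SE 0.108, adjusted p = 5.46e-06). TIPARP, an ADP-ribosyltransferase induced by the aryl hydrocarbon receptor, measured 56.6, 54.6 and 60.2 CPM and 88.5 and 84.4 CPM (0.60, SE 0.0785, adjusted p = 2.84e-04). These and ENC1, an actin-associated kelch protein (0.41, adjusted p = 0.00226), were called with every library left out. The kinase gene SGK1 (0.55) and the adhesion gene AMIGO2 (0.46) lost their calls without the 1 h replicate 1 (0.46, adjusted p = 0.113, and 0.44, adjusted p = 0.1). SMAD7, the inhibitory SMAD of TGF-β signalling, rose by 0.51 (adjusted p = 0.0093) and was the only one called of 13 on the list of ID, SMAD and SKI feedback genes. It was not called without either 1 h library (0.52, adjusted p = 0.117, and 0.51, adjusted p = 0.144) or when scaled by library size alone. TUFT1 rose by 0.42 and was not called without the 0 h replicate 2 or either 1 h library (adjusted p up to 0.117).

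For 2 higher genes the value is uncertain because a near-identical copy exists. Fractional counts were not confined to these 2, CCN2 and NR4A1. Counts were also not whole in 17 of 17 libraries for AC020916.1, IER3, ENC1 and RIPK4, and in 14 for KCTD21. The effect of the splitting on these genes was not tested. CHRNA7, the α7 nicotinic receptor gene, had counts of 3, 4 and 3 at 0 h and 19 and 17 at 1 h, a ratio of the summed rates of 5.46 (95% counting interval 2.65 to 12.3). Its fitted log2 fold change was 2.45 (SE 0.509, adjusted p = 0.0327). The fusion copy CHRFAM7A had 17, 15 and 18 counts at 0 h and 11 and 9 at 1 h. When the copies were summed, a choice made after seeing the data, the gene was not called (0.54, adjusted p = 0.987), and CHRNA7 was not called with any of the 5 libraries left out (adjusted p from 0.124 without the 0 h replicate 1 to 0.314 without the 1 h replicate 1). SIK1B, a salt-inducible kinase gene, measured 31.9, 32.1 and 31.4 CPM at 0 h and 45.3 and 41.5 CPM at 1 h (0.45, adjusted p = 0.0454), and its copy SIK1 measured 4.04, 3.30 and 2.37 CPM and 6.08 and 5.40 CPM. Summed with SIK1 it was called (0.49, adjusted p = 0.00302), while alone it lost its call with any of the 5 libraries left out (adjusted p from 0.122 without the 0 h replicate 1 to 0.492 without the 1 h replicate 1).

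Among the 8 lower genes, DDIT4 had the largest difference and the smallest adjusted p of the comparison. DDIT4 (chromosome 10, 72273920 to 72276036, plus strand) encodes REDD1, which restrains mTORC1, and measured 75.3, 80.9 and 76.8 CPM at 0 h and 39.2 and 34.7 CPM at 1 h (-1.07, SE 0.0825, adjusted p = 5.60e-07). The 14 other genes of the list of mTOR restraint and arrestin-fold genes were not called, with TXNIP at 0.0099, SESN2 at 0.051 and DDIT4L highest at 0.54 (adjusted p = 0.987). RIPK4, a kinase known from keratinocyte differentiation, measured 17.8, 20.2 and 15.7 CPM and 12.9 and 8.87 CPM (-0.71, SE 0.132, adjusted p = 0.0126), with a wide gap between the 1 h libraries. MYLIP, a ubiquitin ligase that degrades the LDL receptor, measured 19.2, 19.8 and 21.3 CPM and 13.3 and 14.7 CPM (-0.52, adjusted p = 0.0414), and KCTD21 measured 9.83, 9.97 and 10.2 CPM and 6.77 and 6.999 CPM (-0.54, adjusted p = 0.0454). PHF23, a PHD-finger protein, was at 51.95, 50.4 and 53.7 CPM and 37.9 and 37.7 CPM (-0.46, adjusted p = 0.00239), and PPP1R10, a nuclear regulator of protein phosphatase 1, at 96.5, 94.2 and 86.6 CPM and 71.5 and 76.1 CPM (-0.32, adjusted p = 0.0282). DDIT4 was called with every library left out. RIPK4 lost its call when either the 0 h replicate 2 (-0.62, adjusted p = 0.116) was left out or when the 1 h replicate 2 was (-0.48, adjusted p = 0.597), and PHF23 without either 1 h library (-0.46, adjusted p = 0.0531, and -0.46, adjusted p = 0.056). MYLIP and KCTD21 lost theirs with any of the 5 libraries left out (adjusted p up to 0.522 and 0.486, both without the 1 h replicate 1), and PPP1R10 kept its call only without the 0 h replicate 3 (-0.37, adjusted p = 0.0169).

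The genes of TRAIL signalling itself did not pass the test after 1 h. None of the 27 genes tested in the list of death receptor and apoptosis genes was called, the median was -0.019, and 12 were above 0. At an unadjusted p below 0.05, 2 were higher and 1 lower, and DESeq2 called 1 member, MCL1, higher (0.23, adjusted p = 0.00142). MCL1 was also called higher when trends with transcript length and GC content were removed. The death receptor genes TNFRSF10A and TNFRSF10B had log2 fold changes of -0.031 (SE 0.0825) and 0.019 (SE 0.0641), and CASP8, the initiator caspase, had 0.016 (SE 0.0813). The extremes were MCL1, an anti-apoptotic BCL2-family gene, at 0.24 (adjusted p = 0.0963), and the adaptor gene FADD at -0.25 (adjusted p = 0.696). MCL1 stood at 297, 298 and 294 CPM at 0 h and 360.4 and 339 CPM at 1 h, and FADD at 60.2, 72.1 and 59.1 CPM and 53.7 and 53.3 CPM. Neither overlapped between groups, nor did 19.1% of all genes tested. TNFSF10, the gene of TRAIL, was at 59.9, 60.7 and 78.2 CPM and 70.6 and 66.8 CPM (0.051, adjusted p = 0.988), with overlapping groups.

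Other stress and signalling lists had 0 called members by edgeR, and 0 by DESeq2. With trends with transcript length and GC content removed, a choice made after seeing the data, GBP1 of the interferon-stimulated list was called. The 12 heat shock genes had a median of -0.057 with 3 above 0, from HSPA8 (-0.23) to HSPE1 (0.17), and 0 had an unadjusted p below 0.05. The 18 hypoxia and glycolysis genes had a median of -0.027 with 7 above 0, and PFKFB4 was the lowest at -0.25 (adjusted p = 0.912), 1 of 2 with an unadjusted p below 0.05. The 16 clock genes had a median of -0.021 with 6 above 0, and BHLHE40 was the highest at 0.24 (adjusted p = 0.245), the only 1 with an unadjusted p below 0.05. The 9 Notch and HES family genes tested had a median of -0.030 with 4 above 0, and 1 had an unadjusted p below 0.05. The 13 interferon-stimulated genes had a median of 0.063 with 7 above 0, and GBP1 was the highest at 0.27 (adjusted p = 0.223), 1 of 2 with an unadjusted p below 0.05.

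**Figure D3:**
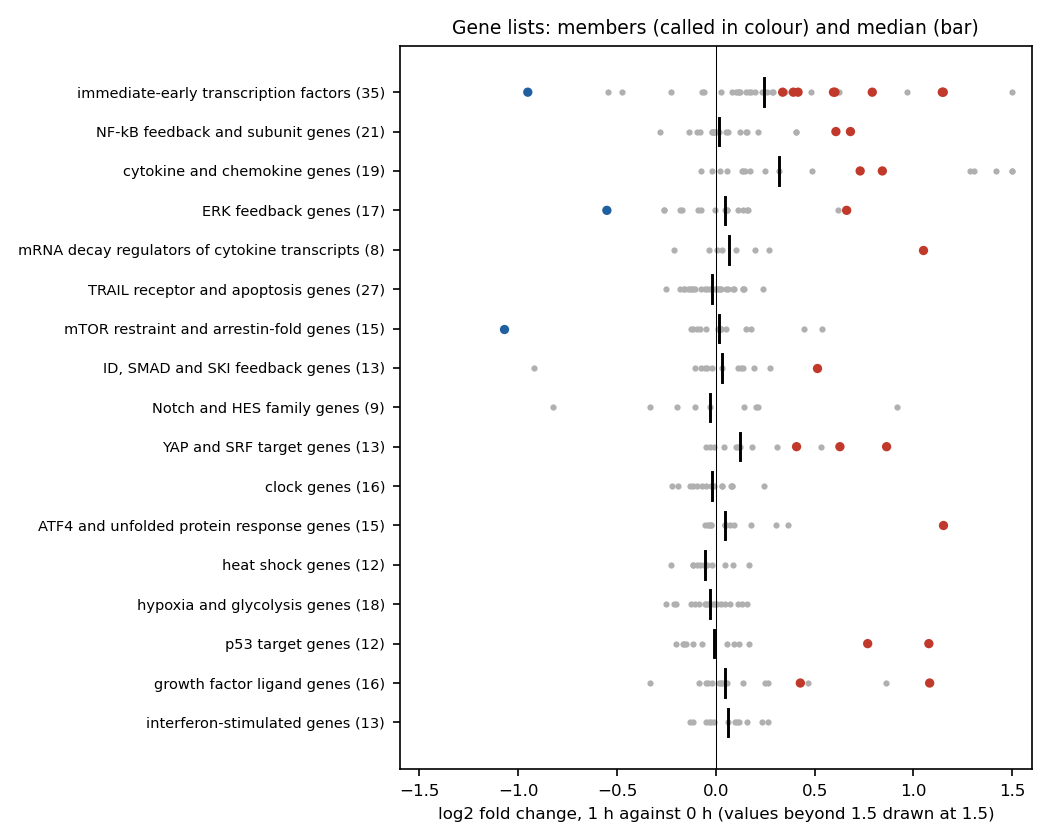
Each row is a gene list with the number of members tested, each point is a member at its log2 fold change at 1 h against 0 h (red called higher, blue called lower, grey not called), and the bar is the list's median. Immediate-early and cytokine genes have medians of 0.24 and 0.32, while the medians of the TRAIL receptor, clock, hypoxia and heat shock lists lie just below 0.

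The called genes followed different courses at later times. These contrasts share libraries with the comparison at 1 h, so levels are given for each time. Choosing the genes on the 1 h libraries favours a return toward the 0 h level at 3 h. Between 1 h and 3 h, 487 of all genes tested were called higher (3.17%) and 393 lower (2.56%). Of the 40 genes higher at 1 h, 13 were higher again at 3 h than at 1 h, 9 were lower at 3 h than at 1 h, and 18 were called in neither direction. ZNF93 was high at 1 h alone, with a mean of 24.98 ± 0.923 CPM (SD, n = 2), beside 11.4 ± 0.769 CPM after 3 h and 11.5 ± 0.633 CPM in the 0 h libraries (both n = 3). Over the same step PPP1R3B fell back from 21.9 ± 3.74 to 12.7 ± 0.689 CPM, and WEE1 from 55.9 ± 5.67 to 33.6 ± 2.62. GADD45B was at 123 ± 11.5 CPM after 1 h, had fallen to 80.7 ± 6.47 by 3 h, and by 24 h stood at 28.9 ± 2.81 CPM, below its 0 h level of 58.2 ± 5.32. EDN1 had means of 56.7 ± 2.42, 45.1 ± 1.54 and 12.9 ± 1.76 CPM at 1, 3 and 24 h, and CCN1 stood at 883 ± 59.5 CPM at 24 h (against 0 h, log2 fold change -0.61, adjusted p = 4.35e-06).

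A contrasting set had its highest level at 3 h. CSF2 reached 53.4 ± 4.67 CPM (SD, n = 3) from 17.5 ± 2.15 at 1 h (n = 2), JUNB 99.2 ± 8.42 from 50.9 ± 3.98, and TNFAIP3 25.9 ± 0.898 from 13.3 ± 0.348. CD274 stood at 57.4 ± 0.971 CPM at 3 h against 38.9 ± 1.38 at 1 h. BIRC3 and CXCL8, which were not called at 1 h, stood at 198 ± 18.9 and 57.4 ± 4.53 CPM at 3 h. Among the lower genes, FOS and SPRY1 fell further, to 12.2 ± 1.16 and 4.69 ± 0.756 CPM at 3 h, and FOS was at 43.1 ± 7.44 CPM at 6 h, 14.8 ± 1.10 CPM at 12 h and 21.2 ± 2.001 CPM at 24 h (against 0 h, log2 fold change -1.57, adjusted p = 8.96e-07 at 12 h, and -1.05, adjusted p = 2.08e-05 at 24 h). PHF23, RIPK4 and PPP1R10 rose between 1 h and 3 h, to 62.6 ± 0.712, 19.1 ± 0.451 and 98.3 ± 4.29 CPM. DDIT4 stayed low at 3 h (45.04 ± 4.87 CPM) and exceeded its 0 h level at 12 h (133 ± 3.71 CPM, log2 fold change against 0 h 0.77, adjusted p = 5.83e-07).

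**Figure D4:**
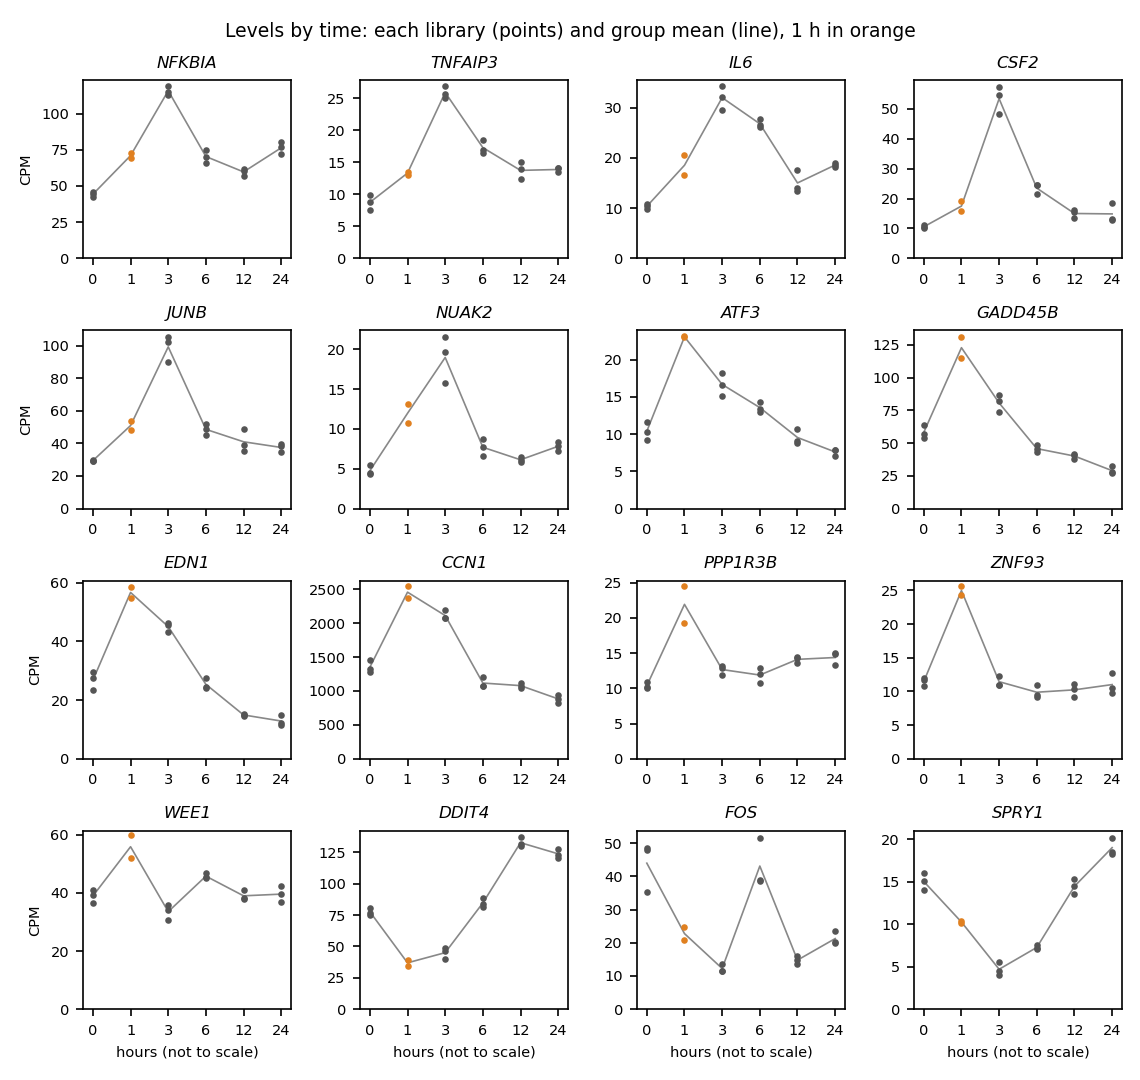
For 16 called genes, points give the CPM of each library at 0, 1, 3, 6, 12 and 24 h (x axis, not to scale, 1 h in orange) and the line joins the group means. NFKBIA, TNFAIP3, IL6, CSF2, JUNB and NUAK2 are highest at 3 h, ATF3, GADD45B, EDN1, CCN1, PPP1R3B, ZNF93 and WEE1 at 1 h, and DDIT4, FOS and SPRY1 are low at 1 h and 3 h.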

How the data were processed

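RNA from MDA-MB-231 cells was sequenced from stranded, poly(A)-selected, paired-end libraries, per the labels' protocols. The authors deposited 1 table of gene-level expected counts for 58870 entries and 17 libraries, which per the file's name came from RSEM. The submitters' processing notes name cutadapt 1.18, STAR 2.7.0f and build hg38. The RSEM version, annotation and strand setting are not given in the sources used here. Of these expected counts as deposited by the authors, 10.8% were fractional, since reads shared between genes are split by estimation, and all values were rounded.

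Genes were filtered with edgeR 4.0.16 (filterByExpr by time, leaving 15365), scaled by TMM and fitted in 1 quasi-likelihood model with a mean for each time over all 17 libraries (limma 3.58.1, R 4.3.3). Contrasts were 1 h minus 0 h, the later times minus 0 h, and 3 h minus 1 h, with Benjamini-Hochberg adjustment over all genes tested and a threshold of 0.05. CPM values use TMM-scaled library sizes. SE is that of the log2 fold change. On simulated counts for the same design, the test recovered 86% of genes changed 1.5-fold and 98% of those changed 2-fold, and called 12 of 15165 unchanged genes. The changed genes all had an average level above 2 log2 CPM, so the recovery does not cover lower genes. The simulated libraries held no trends with transcript length or GC content. They held 100 changed genes at each fold, more than the 48 genes called in the data. More changed genes make the Benjamini-Hochberg threshold easier to pass, so the recovery in the data may be lower. Gene positions were matched to GENCODE 29 and promoters and miRNAs to RefSeq, and 0 count columns lacked a sample.

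Genes were named by rule: the 25 highest and 10 lowest fold changes among called genes, NFKB2, TNFSF10, and list members that were called or extreme in their list. Other genes were named after their values were seen. The comparison, gene lists and motifs were chosen with earlier results of these data known, and the lists are described by counts and medians without a test. Alternatives were other scalings, DESeq2 1.42.0, no filter, only the 0 h and 1 h libraries, unrounded counts, a replicate block, each library left out, and, chosen after seeing the data, mitochondrial genes left out, near-identical copies summed, and trends with transcript length and GC content removed. No 2 libraries of a group were alike within sampling noise: the mean chi-square per gene was 4.51 to 12.3 between the 0 h libraries and 9.39 between the 1 h libraries. Abundant genes weigh most in this mean, so it does not give the spread of a typical gene. The model's common coefficient of variation between replicates, beyond counting noise, was 7.06% over all times.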

Additional observations from a re-analysis of the deposited data

Results flagged for a closer look

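The effects at 1 h and at 3 h, each against the same 0 h libraries, differed by the test of 3 h against 1 h in the same edgeR model (Benjamini-Hochberg adjusted p below 0.05 over all genes tested) for 27 of the 48 genes called at 1 h. Of all genes tested, 487 (3.17%) were called higher at 3 h than at 1 h and 393 (2.56%) lower. The 48 genes were chosen on the same 1 h libraries, so the choice itself favours a return toward the 0 h level at 3 h. Log2 fold changes of 3 h against 1 h are given. Of the genes higher at 1 h, 9 were lower again at 3 h: ZNF93 -1.12, PPP1R3B -0.79, WEE1 -0.74, GADD45B -0.61, ATF3 -0.47, RND3 -0.45, SMAD7 -0.40, EDN1 -0.33 and CCN2 -0.31. Another 13 rose further: CSF2 1.61, JUNB 0.96, TNFAIP3 0.96, IL6 0.79, NFKBIA 0.71, NUAK2 0.66, CD274 0.56, SIK1B 0.54, IER3 0.53, ANKRD1 0.49, HBEGF 0.41, TIPARP 0.35 and JUN 0.34. Of the genes lower at 1 h, 2 fell further (SPRY1 -1.12 and FOS -0.89), and 3 were higher at 3 h than at 1 h (RIPK4 0.81, PHF23 0.73 and PPP1R10 0.41). Outlying libraries were not searched for within the groups, which hold 2 or 3 libraries.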

How the results depend on the processing

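Of the 48 calls, 17 were made under every one of 15 alternatives: NUAK2, ATF3, ZNF93, EDN1, PPP1R3B, GADD45B, ZC3H12A, CCN1, JUNB, GADD45A, NFKBIA, DUSP5, CCN2, TIPARP, PPP1R15A and ENC1 higher, and DDIT4 lower. Leaving out each library in turn gave 23 to 38 higher genes, 3 to 6 lower genes, 5 to 11 higher by at least 2-fold and 1 to 3 lower by at least 2-fold. Without a filter on low counts, 29899 genes were tested and 132 were higher and 63 lower, with 40 and 36 past 2-fold, and all 48 calls were made again. With only the 0 h and 1 h libraries, 39 genes were higher and 5 lower, 3 of the lower by at least 2-fold. Of the 48 calls, 34 were made again. The calls lost were NR4A1, MIR222HG, TNFAIP3, SMAD7, CD274, JUN, VMP1, SRF, F3, PPP1R10, MYLIP, KCTD21, SPRY1 and RIPK4. DESeq2 gave 45 higher and 16 lower genes, 4 of the lower by at least 2-fold, and made 46 of the 48 calls. With trends in transcript length and GC content removed, 57 were higher and 13 lower, 2 of the lower by at least 2-fold. In that setting 46 of the 48 calls were made again. The cause of these shifts was not tested. The replicate block gave 44 calls, 42 of them among the 48. Replicates with the same number deviated from their group means with correlations of -0.159 and -0.029. With 2 libraries at 1 h, whose deviations mirror each other, these values cannot decide whether the numbers pair the libraries. TNFSF10, 0.051 with all libraries, was -0.0078 without the 0 h replicate 2 and ran from -0.0155 (without the 0 h replicate 1) to 0.1871 (without the 0 h replicate 3). Scaled by library size alone, the median of all genes was -0.050. With 2 libraries at 1 h the exact permutation test of a single gene could not go below p = 0.1.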

Other observations

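The called genes were shorter at the median than the genes tested as a whole, a difference given without a test. The median span was 13748 bases for the 40 higher genes and 12270 for the 8 lower genes, against 27571 over the 15329 tested genes matched to the annotation. The median longest transcript was 2867 and 2702 bases, against 3333, and the median number of exons of that transcript was 4 and 4.5, against 7. Over the 13696 genes used to fit the trend, the log2 fold change at 1 h fell by 0.0284 for each doubling of transcript length. Length and GC content together held 1.38% of its variance. The 1 h libraries differed: relative to the 0 h mean, the slope was -0.000169 in replicate 1 and -0.0567 in replicate 2. The 0 h replicates 1, 2 and 3 had slopes of -0.0255, 0.0137 and 0.0118. The part of this trend in the median lengths was not tested.

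Some genes lay outside the threshold and are named here after their values were seen. NEDD9, an adhesion scaffold, measured 39.9, 42.2 and 48.1 CPM at 0 h and 56.9 and 54.8 CPM at 1 h (0.36, adjusted p = 0.0706) and was at 43.6 ± 1.92 CPM at 3 h (SD, n = 3). BDNF, a neurotrophin, measured 48.1, 45.97 and 44.8 CPM and 57.9 and 57.3 CPM (0.32, adjusted p = 0.0706) and was at 79.3 ± 4.55 CPM at 3 h. In both genes the 1 h libraries lay above every 0 h library, while groups did not overlap, in either direction, in 19.1% of all genes tested. The early-response gene MAFF, a small partner of AP-1 type factors, had 0.35 (adjusted p = 0.108), and MIR22HG, the host of miR-22, 0.42 (adjusted p = 0.148). MAFF was called when trends with transcript length and GC content were removed.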
